A study of Mus musculus with 2 samples.

Results

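The Mir30 family comprises the 6 hairpin genes Mir30a, Mir30b, Mir30c-1, Mir30c-2, Mir30d and Mir30e, which lie as neighbouring pairs at 3 loci of the mouse genome. They were chosen by gene symbol, without use of any measured value, and make up 6 of the 2202 miRNA genes in the count tables. MicroRNA-seq had been performed on total RNA of adrenal gland from wild-type C57BL/6J mice, an inbred strain obtained from The Jackson Laboratory, with RNA inserts shorter than 30 nt. The series has 1 group with 2 biological replicates, which carry the same donor record. Separate animals are therefore not documented, and the spread between the replicates may be technical. No treatment is recorded, age and developmental stage are unknown, and a free-text label says male although sex is otherwise given as not collected. The tissue is a whole gland, so the number of cells of a type and the RNA made per cell cannot be told apart. Replicate 1 held 20598186 reads, of which 10263894 were assigned to miRNA genes, and replicate 2 held 10628898, of which 3525666 were assigned. Levels are given as CPM, the count of a gene scaled to a common total of assigned counts.

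MicroRNAs are cut from hairpin precursors, and either arm of a hairpin, 5p or 3p, can give a mature RNA of about the same length. The mature RNA guides Argonaute proteins to transcripts, which are recognised mainly through the seed, bases 2 to 8 from its 5′ end. Members of the Mir30 family share the seed of their 5p forms and are broadly expressed in mammalian tissues. Their known targets include the matrix-associated gene Ctgf (Ccn2), the transcription factor gene Snai1 and the autophagy gene Becn1.

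The mature sequences show at which bases members differ. RefSeq entries (build GRCm38.p6, the coordinates of mm10) were matched for 4 of the 6 members, Mir30a, Mir30c-1, Mir30c-2 and Mir30e. In the sequences below, written from the 5′ end, capitals mark the seed. The 5p forms are shown first because they carry the family seed, with miR-384-5p as the other mature RNA of the table that has it.
miR-30a-5p: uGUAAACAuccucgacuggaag
miR-30e-5p: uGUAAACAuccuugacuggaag
miR-30c-5p: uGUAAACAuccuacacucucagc
miR-384-5p: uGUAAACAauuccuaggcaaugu
The 3p forms fall into a pair of groups with different seeds.
miR-30a-3p: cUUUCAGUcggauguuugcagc
miR-30e-3p: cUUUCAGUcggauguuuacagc
miR-30c-1-3p: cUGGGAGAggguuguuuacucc
miR-30c-2-3p: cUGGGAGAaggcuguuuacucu

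miR-30a-5p and miR-30e-5p are identical for 12 nt from the 5′ end and differ at 1 of 22 positions, C13U, with positions counted from the 5′ end and the base of miR-30a given first. Their 3p forms also differ at 1 of 22 positions, G18A. miR-30c-5p shares the same first 12 nt and differs from miR-30a-5p at 5 of the 22 positions compared. The 3p forms of the Mir30c genes differ from each other at 3 of 22 positions, G9A, U12C and C22U, with the base of miR-30c-1-3p given first.

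The 5p form of miR-30c is made in identical sequence by both Mir30c genes. The hairpins are printed because the stretch they share, in capitals, holds that mature form whole.
Mir30c-2, chr1:23291701-23291784, plus strand: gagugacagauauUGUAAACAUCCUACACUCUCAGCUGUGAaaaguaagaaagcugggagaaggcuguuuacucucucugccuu
Mir30c-1, chr4:120769534-120769622, minus strand: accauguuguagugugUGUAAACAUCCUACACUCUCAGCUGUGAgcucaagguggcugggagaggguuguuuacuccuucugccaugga
The shared stretch is 28 nt long and covers bases 14 to 41 of the Mir30c-2 hairpin and bases 17 to 44 of the Mir30c-1 hairpin. Multimapping reads, 37.8% of mapped reads in replicate 1 and 38.8% in replicate 2, are totalled on a separate summary line and enter no gene, so a read lying within this stretch cannot add to either Mir30c gene. The tables count whole hairpins, and the share of each Mir30c count that came from the 3p arm is not separated. The levels of Mir30c-1 and Mir30c-2 below are those of uniquely placed reads and leave out such miR-30c-5p reads, whose number these counts do not show.

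Among the 1005 hairpins of the RefSeq table, every 22-nt window of Mir30a (50 windows) and Mir30e (71 windows) occurred in that hairpin alone. In each Mir30c gene 7 windows, those inside miR-30c-5p and the bases after it, also occurred in the other Mir30c gene, which left 56 of 63 in Mir30c-2 and 61 of 68 in Mir30c-1. At a window of 18 nt, 1 window was shared between Mir30a and Mir30e, and the longest stretch common to their hairpins was 18 nt. The hairpins of Mir30b and Mir30d were not in this set, so windows shared with them were not searched. The set matched 968 of the 2202 miRNA genes, and the rest of the genome was not searched either.

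**Figure D1:**
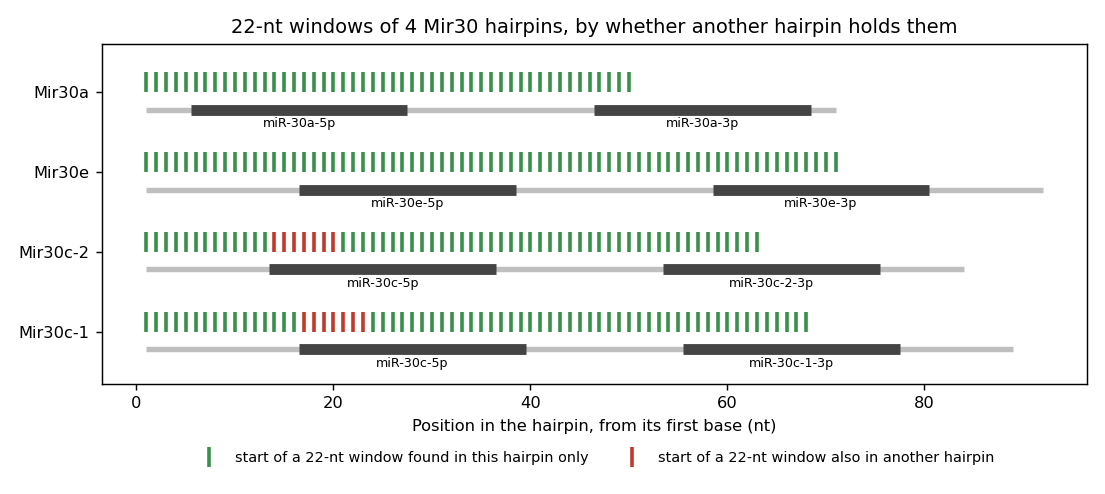
Start positions of all 22-nt windows along 4 Mir30 hairpins (x axis, nt from the first base of the hairpin), in green where no other hairpin of the RefSeq table holds the window and in red where another does, with the mature arms drawn as dark bars. The 7 red starts in each Mir30c hairpin lie at the 5p arm, and Mir30a and Mir30e have none. Mir30b and Mir30d were not among the hairpins searched.

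On mm10 the first locus holds Mir30a (ENSMUSG00000065405.3, chr1:23272269-23272339) and Mir30c-2 (ENSMUSG00000065567.1) on the plus strand, with starts 19432 nt apart. Mir30c-2 lies within an exon of the long noncoding gene Gm27028, and no annotated gene overlaps Mir30a. The second locus holds Mir30d (ENSMUSG00000065437.1, chr15:68341208-68341289) and Mir30b (ENSMUSG00000065476.2, chr15:68337415-68337510) on the minus strand, 3793 nt apart. Mir30d lies wholly in an exon of the long noncoding gene Gm20732 and overlaps the unclassified gene Gm37296 by 9 nt, and Mir30b overlaps an exon of the noncoding gene Gm26621 by 16 nt. The third locus holds Mir30e (ENSMUSG00000065409.1, chr4:120772606-120772697) and Mir30c-1 (ENSMUSG00000065490.1) on the minus strand, 3072 nt apart. Both lie in introns of Nfyc, the gene for a subunit of the CCAAT-binding factor NF-Y, inside 6 annotated transcripts and outside their exons. Read along the strand, the upstream genes are Mir30a, Mir30d and Mir30e, and the downstream genes are Mir30c-2, Mir30b and Mir30c-1.

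The 3 upstream genes carried nearly all of the family's counts. Mir30a had 65775 counts (6408 CPM) in replicate 1 and 26089 counts (7400 CPM) in replicate 2. Mir30d had 69128 counts (6735 CPM) and 24904 counts (7064 CPM). Mir30e had 39992 counts (3896 CPM) and 17046 counts (4835 CPM). Each had a higher CPM in replicate 2, and together they made up 97.4% of the family's counts in replicate 1 and 98.2% in replicate 2. Among the 2202 miRNA genes Mir30a ranked 28th and 23rd in the 2 replicates, Mir30d 26th and 25th, and Mir30e 37th and 34th.

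The 3 downstream genes stood far lower. Mir30b had 1839 counts (179 CPM) in replicate 1 and 594 counts (168 CPM) in replicate 2. Mir30c-2 had 1925 counts (188 CPM) and 406 counts (115 CPM). Mir30c-1 had 918 counts (89.4 CPM) and 213 counts (60.4 CPM). All 3 had a lower CPM in replicate 2, opposite to the upstream genes, although the direction of Mir30b turned with DESeq2 size factors, and their summed level went from 456 CPM to 344 CPM. Their ranks lay between 136th and 191st.

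The mean levels, as CPM ± SD over 2 replicates, gave an order in which 2 pairs of neighbours were not resolved. Mir30a (6904 ± 701) and Mir30d (6899 ± 232) were not separated, since Mir30d was higher in replicate 1 and Mir30a in replicate 2. Mir30e (4366 ± 664) came next, below Mir30d in both replicates with no overlap of their ranges. Mir30b (174 ± 7.56) and Mir30c-2 (151 ± 51.2) were not separated either, and each led in 1 replicate. Mir30c-1 (74.9 ± 20.5) was the lowest member in both replicates. CPM are compared per hairpin gene here because a library of short inserts reads the mature RNA, whatever the length of the hairpin. Divided by the length of the annotated hairpin, Mir30a (71 nt) stood above Mir30d (82 nt) in both replicates, with 9026 against 8213 CPM per 100 nt in replicate 1 and 10422 against 8614 in replicate 2, and the rest of the order of means was unchanged.

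**Figure D2:**
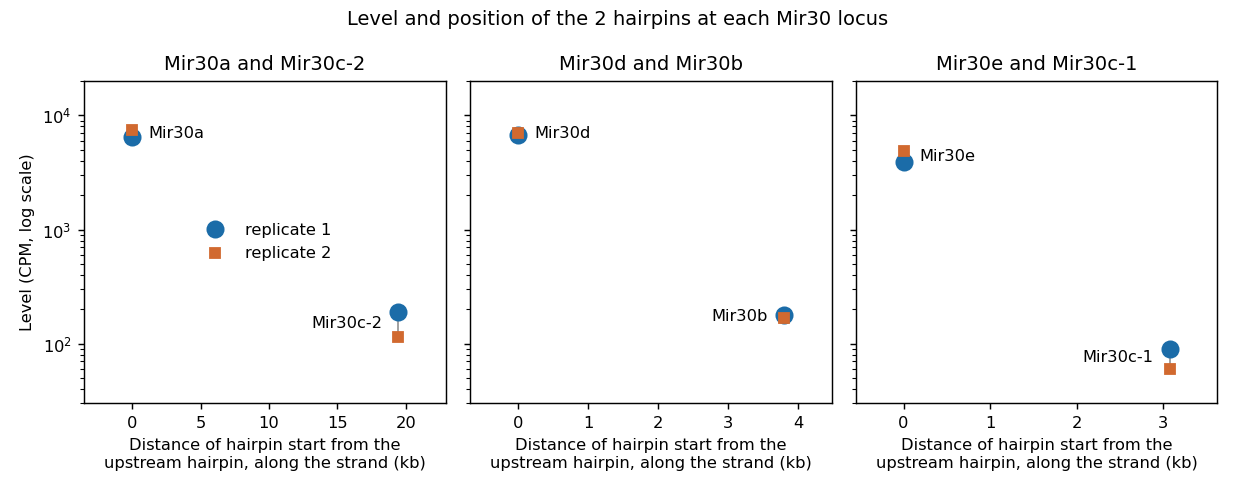
Level of each Mir30 gene in CPM (y axis, log scale) against the distance of its start from the upstream hairpin of its locus in kb (x axis, 1 panel per locus), with a circle for replicate 1 and a square for replicate 2. The upstream gene of each panel lies between 3896 and 7400 CPM and the downstream gene between 60.4 and 188 CPM.

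Summed by locus, the Mir30a and Mir30d loci exchanged first place between replicates and the Mir30e locus was the smallest. The Mir30a and Mir30c-2 locus held 37.7% of the family's counts in replicate 1 and 38.3% in replicate 2, a mean of 38.0% ± 0.40 (SD, n = 2). The Mir30d and Mir30b locus held 39.5% and 36.8%, a mean of 38.2% ± 1.91. The Mir30e and Mir30c-1 locus in Nfyc held 22.8% and 24.9%, a mean of 23.9% ± 1.51. These shares do not depend on how the libraries are scaled. Their exact Clopper-Pearson 95% intervals spanned less than 1 percentage point, for example from 22.6% to 23.0% for the Mir30e locus in replicate 1. Such intervals cover counting error only. Amplified copies are not marked in these libraries, so the intervals treat every read as independent and may be too narrow.

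The family as a whole took 1.75% of assigned counts in replicate 1 (Clopper-Pearson 95% interval 1.74% to 1.76%) and 1.96% in replicate 2 (1.95% to 1.98%). Taken over all reads, the share was 0.872% in replicate 1 and 0.652% in replicate 2, so the order of the replicates reversed. The share of unmapped reads was 13.8% in replicate 1 and 41.4% in replicate 2, and its part in this reversal was not tested.

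Within each locus the upstream gene exceeded the downstream gene by a factor of more than 30 in both replicates. For Mir30a over Mir30c-2 the ratio of counts was 34.2 in replicate 1 (exact 95% interval 32.7 to 35.8) and 64.3 in replicate 2 (58.3 to 71.1). For Mir30e over Mir30c-1 it was 43.6 (40.8 to 46.6) and 80.0 (69.9 to 92.0). For Mir30d over Mir30b it was 37.6 (35.9 to 39.4) and 41.9 (38.6 to 45.6). In 2 of the 3 loci the denominator is a Mir30c gene, whose miR-30c-5p reads within the shared stretch are not counted. Those ratios may therefore be wider than the difference in mature RNA. How unevenly reads could be placed at Mir30d and Mir30b was not tested.

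The within-locus ratio also moved between the replicates. It was 1.88-fold larger in replicate 2 at the Mir30a locus (exact conditional 95% interval 1.69 to 2.10) and 1.84-fold larger at the Mir30e locus (1.58 to 2.14). At the Mir30d locus it was 1.12-fold larger, with an interval from 1.02 to 1.23. The loci whose downstream gene is a Mir30c gene thus moved by similar factors, and the Mir30d locus moved less, with an interval that does not overlap theirs. Mir30c-2 and Mir30c-1, which lie on different chromosomes, kept their ratio to each other within counting error, at 2.10 (1.94 to 2.27) in replicate 1 and 1.91 (1.61 to 2.26) in replicate 2. Mir30b gained on both Mir30c genes in replicate 2, by 1.53-fold against Mir30c-2 (1.33 to 1.77) and by 1.39-fold against Mir30c-1 (1.16 to 1.67).

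The ratios among the upstream genes moved less between replicates than those of Mir30a and Mir30e over their Mir30c neighbours. Mir30a over Mir30d was 0.951 in replicate 1 and 1.05 in replicate 2. Mir30a over Mir30e was 1.64 and 1.53, and Mir30d over Mir30e was 1.73 and 1.46. The largest of these shifts was that of Mir30d over Mir30e, by a factor of 0.845 (0.826 to 0.865).

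The Mir30 pairs were set beside all other neighbouring miRNA genes that lie on the same strand with starts within 50 kb and have at least 10 counts each over both replicates. For these 109 pairs the median size of the mean log2 ratio, regardless of sign, was 2.47, with quartiles of 1.13 and 4.68. The mean log2 ratios of the Mir30 pairs were 5.55 for Mir30a over Mir30c-2, 5.31 for Mir30d over Mir30b and 5.88 for Mir30e over Mir30c-1, all above the upper quartile. A wider ratio was found in 19, 20 and 17 of the 109 other pairs, respectively. Among the 83 other pairs with at least 100 counts for each gene, a minimum that the Mir30 pairs also pass, the median was 2.10 and a wider ratio was found in 9, 10 and 7. Multimapping reads are missing from the Mir30c genes and from other genes with shared windows, and their part in this ranking was not tested. The upstream gene was the higher in both replicates at all 3 Mir30 loci. Among the other pairs it was the higher in both replicates in 50, the lower in both in 46, and changed order in 13. Between replicates the other pairs moved by a median of 0.59 on the log2 scale. The shift of 0.91 at the Mir30a locus was exceeded by 31 of them and the shift of 0.87 at the Mir30e locus by 33, while 97 moved more than the 0.16 of the Mir30d locus.

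**Figure D3:**
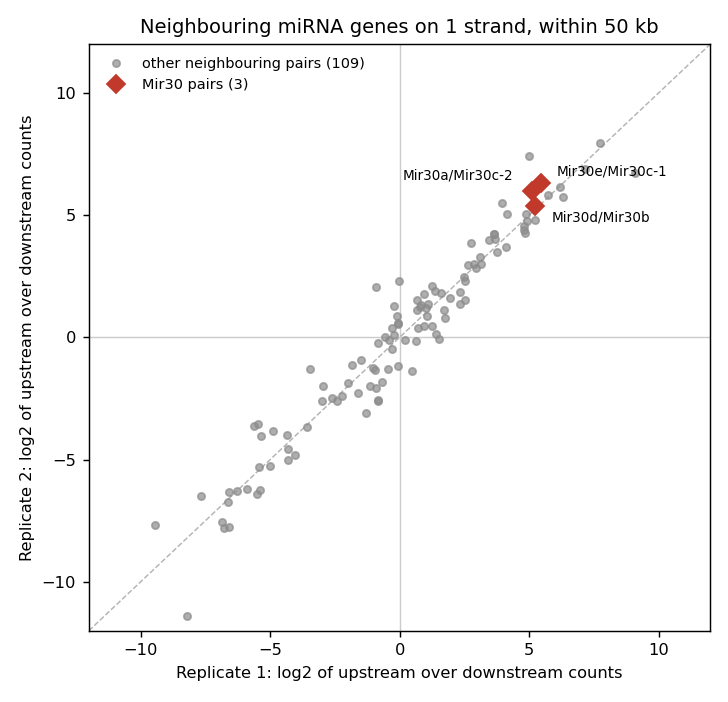
Log2 ratio of upstream over downstream counts in replicate 1 (x axis) and replicate 2 (y axis) for 109 pairs of neighbouring miRNA genes on 1 strand (grey) and the 3 Mir30 pairs (red), with a dashed line where the replicates are equal. The Mir30 pairs lie together between 5.09 and 6.32, within the range of the other pairs with a higher upstream gene.

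The replicates were compared gene by gene with an exact two-sided binomial test on library sizes scaled by the trimmed mean of M-values (TMM), with Benjamini-Hochberg adjustment over 443 miRNA genes. This test compares 2 libraries of 1 group and not conditions, and counting error is its only error. All 6 members entered it. It called 5 of the 6, against 52.8% of all genes tested. Of these, 3 were higher in replicate 2 (background 21.2%) and 2 were higher in replicate 1 (background 31.6%). By size, the members' median absolute log2 ratio was 0.24, beside 0.45 over all tested genes and 0.40 over the 277 of them that averaged 10 CPM or more.

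Mir30e was higher in replicate 2 with a log2 ratio of 0.29 (exact 95% interval 0.27 to 0.32, exact binomial adjusted p = 7.02e-106). Mir30a was higher with a log2 ratio of 0.19 (0.17 to 0.21, adjusted p = 3.0e-70 in the exact test). Mir30d was higher by 0.05 (0.03 to 0.07, adjusted p = 4.45e-06 in the exact test), a call that was lost (log2 ratio 0.008, adjusted p = 0.574) when Mirlet7g, the gene with the highest level, was left out of the totals. Mirlet7g took 14.3% of counts in replicate 1 and 10.6% in replicate 2. Each upstream gene had at least 17046 counts per replicate, and at that depth differences this small pass a test that holds counting error alone.

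The Mir30c genes differed more and in the other direction. Mir30c-2 had a log2 ratio of -0.72 (exact 95% interval -0.88 to -0.57, exact binomial adjusted p = 2.68e-21). Mir30c-1 had -0.58 (-0.81 to -0.37, adjusted p = 1.05e-07 in the exact test). The interval of Mir30b, with a log2 ratio of -0.11 (-0.24 to 0.03), included 0, and the exact test gave an adjusted p of 0.196. With size factors from DESeq2, which raise every log2 ratio by 0.18, the estimate for Mir30b turned to 0.08 (adjusted p = 0.391) and the 5 calls stood in the same directions. Over all genes that scaling turned 94 calls higher in replicate 2 and 140 higher in replicate 1 into 119 (26.9% of genes tested) and 100 (22.6%), or 49.4% in all.

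The count of members called varied little with the settings. It was 5 with plain library totals, where 52.1% of all genes were called, and 5 with no count minimum, where 29.5% were. Of the 5 members tested in the column without strand 4 were called, beside 49.3% of all genes, with 2 of them higher in replicate 2 (21.3%). With Mirlet7g out of the totals it was 4 of 6, beside 54.2%, with 2 higher in replicate 2 (19.6%).

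**Figure D4:**
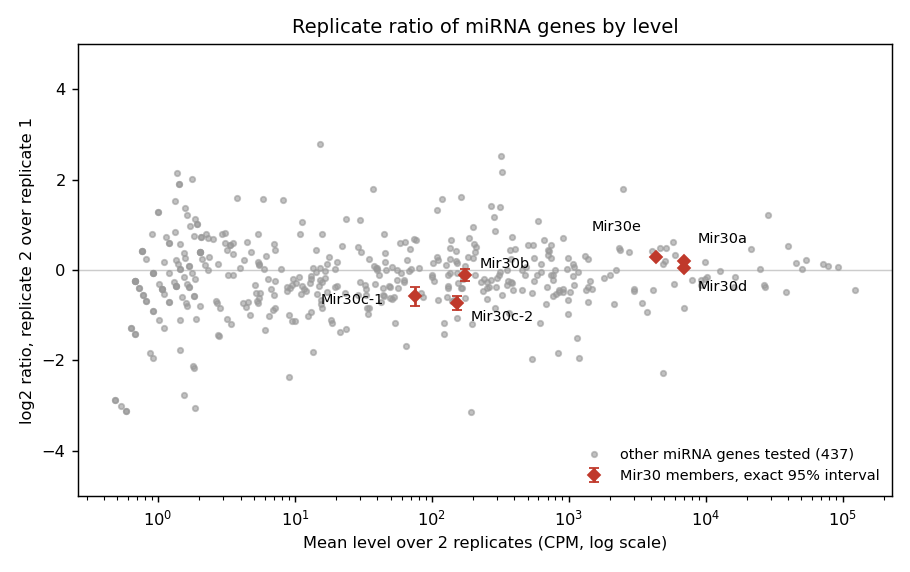
Log2 ratio of replicate 2 over replicate 1 after TMM scaling (y axis) against mean CPM (x axis, log scale) for the other miRNA genes tested (grey) and the 6 Mir30 genes (red, bars are exact 95% intervals for counting error). The upstream genes lie between 0.05 and 0.29, Mir30c-2 and Mir30c-1 at -0.72 and -0.58, and Mir30b at -0.11, which turns to 0.08 with DESeq2 size factors.

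Mir30e has an annotated miRNA gene on its opposite strand. Mir30f (ENSMUSG00000105585.1) covers the same positions as Mir30e on the plus strand, and its mature form is complementary to bases 56 to 77 of the Mir30e hairpin.
miR-30f: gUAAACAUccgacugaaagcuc
The capitals again mark bases 2 to 8, and the letters of the family seed stand at bases 1 to 7 instead. Mir30f had 0 counts on its own strand in both replicates, and all counts at these positions, 39992 and 17046, lay on the strand of Mir30e. The 6 members likewise had 0 counts on their opposite strands in both replicates. In the column that ignores strand, reads at overlapping genes are set aside as ambiguous, and there Mir30e had 0 counts. Its reads would make up 3.15% of the ambiguous reads of that column in replicate 1 and 3.89% in replicate 2. Without strand the Mir30e locus would fall from 23.9% to 0.533% of the family's counts, so the strand-specific column is needed for this locus.

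Outside the family, 1 gene of the tables matched the 5p seed. Mir384 (chrX:105344282-105344369, minus strand) had 155 counts (15.1 CPM) in replicate 1 and 55 counts (15.6 CPM) in replicate 2, below every Mir30 member. The seed of the Mir30c 3p forms was found in 1 further gene, Mir6958, with 0 and 1 counts, and that of miR-30a-3p and miR-30e-3p in none. These searches cover the 1674 distinct mature sequences of the RefSeq table, which matched 1018 of the 2202 miRNA genes.

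For each member the gene outside the family nearest in level was found, by Euclidean distance of log2(CPM + 1) over the 2 replicates. Other members were left out of this search, although Mir30a and Mir30d were nearer to each other than to the genes named for them. Mir21a was nearest to Mir30a with 5213 and 6674 CPM, Mirlet7f-2 to Mir30d with 8457 and 7386 CPM, and Mir100 to Mir30e with 3833 and 5444 CPM. Mir187 was nearest to Mir30b with 179 and 157 CPM. Mir673 stood beside Mir30c-2 with 176 and 113 CPM and Mir666 beside Mir30c-1 with 85.4 and 59.0 CPM. With 2 replicates this describes levels only.

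Marker miRNA genes describe which cell types the tissue held, though none of the lists marks the adrenal cortex. The neuroendocrine genes Mir375, Mir7-1, Mir7-2 and Mir7b are known from endocrine cells such as those of pancreatic islets. They summed to 73420 and 80086 CPM, with all 4 at 10 CPM or more in both replicates. Mir375 made up most of this sum, with 68022 and 76044 CPM. Mir7-2 went from 176 to 234 CPM, while Mir7b fell from 4743 to 3557 CPM and Mir7-1 from 479 to 251 CPM. Mir7-1 and Mir7-2 each hold 3 windows of 22 nt also found in another hairpin, and reads that map to several places enter no gene. The kidney and gut genes Mir192, Mir194-1, Mir194-2 and Mir215 summed to 74.1 CPM in replicate 1 and 83.1 CPM in replicate 2, and 2 of the 4 reached 10 CPM in both. Mir194-1 and Mir194-2 each hold 1 such shared window. The epithelial genes Mir200a, Mir200b, Mir200c, Mir141 and Mir429 summed to 48.6 and 43.1 CPM, with 2 of 5 at 10 CPM or more in both. The liver gene Mir122 had 104 and 97.6 CPM and the endothelial gene Mir126a 89916 and 95595 CPM. Of 6 muscle genes none reached 10 CPM and 4, both copies of Mir1a and of Mir133a, had no count. A read that fits both copies of a gene enters neither, so these counts cannot show that muscle cells were absent. The erythroid genes Mir451a and Mir144 moved most of these lists, from 8357 CPM in replicate 1 to 1804 CPM in replicate 2, the same direction as the Mir30c genes and opposite to the upstream Mir30 genes. The part of red blood cells in the Mir30 differences was not tested.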

How the data were processed

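The authors deposited raw counts per miRNA gene, 1 table per library with 3 count columns and 4 summary lines. Per the description files deposited with the tables, reads refer to mm10 and GENCODE M21. The labels link protocols for library construction and for adapter trimming. Names of aligner and counting tool were not given in the sources used here. The column of sense-strand counts was used, and the summary lines were left out of library sizes.

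CPM, shares and ratios were computed from these counts with Python 3.11.15, scipy 1.17.1 and pandas 2.3.3. Ratios on the log2 scale had 0.5 counts added. Library scaling used TMM in edgeR 4.0.16 or size factors in DESeq2 1.42.0. A quasi-likelihood fit has no residual degrees of freedom between 2 replicates, so an exact binomial test with Benjamini-Hochberg adjustment at 0.05 was applied to genes with 10 or more counts in the replicates together. It was checked on simulated counts with counting error as their only error, so that check does not cover further variation between replicates. Neighbouring pairs were taken from GENCODE positions, and sequences from RefSeq.

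The members, marker lists and tests were chosen with earlier results of these data known. Named genes are the members, overlapping genes, the markers, and all genes that share a member's seed or the symbol Mir30 with a letter. The gene outside the family nearest in level to each member is also named. Alternatives changed the denominator, scaling, count column, count minimum, added count, length scale, replicates, pair distance and window length. Another, the pairs of genes with a RefSeq hairpin and without a shared window, was chosen after seeing the data.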

Additional observations from a re-analysis of the deposited data

How the results depend on the processing

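The family share averaged 1.86% of assigned counts, and 1.75% to 1.96% with 1 replicate left out. It was 2.12% with Mirlet7g out of the total, 0.762% of all reads and 1.62% in the column without strand, where Mir30e is set aside. In that column the Mir30a, Mir30d and Mir30e loci held 49.6%, 49.8% and 0.533% of the family, and the log2 ratio of Mir30e over Mir30c-1 turned from 5.88 to -9.79. The size of the latter value rests on the 0.5 counts added, because Mir30e had 0 counts there. Counts per 100 nt of hairpin moved the share of the Mir30a locus to 42.4% and of the Mir30e locus to 20.6%, and the log2 ratio of Mir30d over Mir30b to 5.54. With 1 replicate left out, the locus shares ran from 37.7% to 38.3%, from 36.8% to 39.5% and from 22.8% to 24.9%, and the log2 ratios from 5.09 to 6.00, from 5.23 to 5.39 and from 5.44 to 6.32. Mir30b turned to a log2 replicate ratio of 0.076 with DESeq2 size factors, and Mir30d lost its call without Mirlet7g in the totals. Members past the replicate test numbered 4 or 5 under the scalings, count minimums and columns tried, beside 29.5% to 54.2% of all genes tested. In the column without strand 5 members were tested, and 6 elsewhere. A setting chosen after the data were seen kept pairs in which both genes had a RefSeq hairpin and no 22-nt window shared with another hairpin. There 65 other pairs gave a median log2 size of 2.41. No Mir30 pair met this setting, so it gives no comparison for them. Depth left no member under 213 counts, and miR-30c-5p reads within the stretch shared by both Mir30c genes remain uncounted.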
